A study of Mus musculus with 40 samples.

Results

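The distal-less genes *Dlx1*, *Dlx2*, *Dlx3*, *Dlx4*, *Dlx5* and *Dlx6* and the muscle segment homeobox genes *Msx1* and *Msx2* were followed through 6 genotypes of embryos carrying mutations in the histone lysine acetyltransferase genes *Kat6a* and *Kat6b*. The 8 genes were taken by symbol from the 26411 genes counted in each E9.5 library, and all 8 passed the filter on low counts that left 14183 genes for testing. Each genotype was represented by 4 whole male embryos at embryonic day 9.5 (E9.5), on a C57BL/6 background and chosen for similar external appearance. This gave 24 libraries from 17 litters. Only 3 litters held different genotypes: WT with *Kat6a* null, WT with *Kat6b* null and WT with *Kat6a* E/E. No litter was shared between different mutant genotypes, nor between WT and *Kat6b* E/E or WT and the embryos with both point mutations. Where the genotypes compared shared no litter, genotype and litter cannot be told apart.

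The WT embryos carried the normal alleles of both genes. The *Kat6a* null embryos were homozygous for a deletion allele labelled cfd and the *Kat6b* null embryos for one labelled dec, both lacking a block of exons. The *Kat6a* E/E embryos were homozygous for the point mutation G656E and the *Kat6b* E/E embryos for G577E, which put glutamate in place of glycine in the acetyltransferase domain so that the protein is made but its catalytic activity is lost. The last group, called double E/E below, was homozygous for both point mutations. Every mutation was present in all tissues of the embryo, and the gene that a label does not name was WT. The comparison of null with point mutant embryos asks what the proteins contribute beyond acetylation.

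Library size ranged from 8401990 to 23339359 counts (median 15317052.5), and no library stood out as a copy of another. The 9 neural crest, 10 surface ectoderm and 6 limb bud markers examined were above 0 in every library. Over all 9 marker lists, the otic gene *Oc90* and the yolk sac gene *Apoa4* were at 0 in at least 1 library, and none was at 0 in all 24. Gene-level counts did not check the deletions, because they include exons outside the deleted block. *Kat6a* was 166 ± 4.65 CPM in *Kat6a* null embryos and 176 ± 8.79 CPM in WT (SD, n = 4 each), and *Kat6b* was higher in *Kat6b* null than in WT embryos (log2 fold change 0.41, limma FDR 0.00441).

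Dlx and Msx proteins bind DNA through a homeodomain. Dlx genes lie in pairs that are transcribed towards each other, and their nested expression in the neural crest of the pharyngeal arches gives the upper and lower jaw different identities, with endothelin signalling from the ventral arch ectoderm needed for *Dlx5* and *Dlx6*. *Dlx1*, *Dlx2*, *Dlx5* and *Dlx6* also specify inhibitory neurons of the ventral forebrain, and *Dlx3* acts in ectoderm and its appendages. *Msx1* and *Msx2* respond to BMP signalling and are made in the facial and limb mesenchyme, the dorsal neural tube and surface ectoderm, where they oppose differentiation in skull, tooth and palate.

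In WT embryos, *Msx1* had the highest level of the 8 genes per kilobase of gene length (21.8 ± 3.66 CPM per kb, SD, n = 4), followed by *Msx2* (15.4 ± 1.24) and *Dlx2* (10.8 ± 0.907). *Dlx5* was at 8.07 ± 0.890 CPM per kb, *Dlx3* at 5.40 ± 0.349, *Dlx6* at 4.07 ± 1.00 and *Dlx1* at 2.37 ± 0.289. *Dlx4* was lowest, at 0.318 ± 0.168 CPM per kb. CPM denotes counts relative to library size, with library sizes scaled by TMM. In this order the SDs of neighbours did not overlap except between *Dlx3* and *Dlx6*. *Dlx4* rested on only 5 to 17 counts per library, which limited every statement about it.

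In GRCm39 (GENCODE M39), *Msx1* lies on chromosome 5 (37977829 to 37981928, minus strand) and *Msx2* on chromosome 13 (53620914 to 53627110, minus strand). *Dlx1* (chromosome 2, 71358457 to 71364325, plus strand) is separated from *Dlx2* (71373752 to 71377102, minus strand) by 9426 bases. *Dlx3* (chromosome 11, 95010937 to 95016122, plus strand) and *Dlx4* (95031273 to 95037089, minus strand) are 15150 bases apart, and *Dlx6* (chromosome 6, 6862989 to 6868568, plus strand) and *Dlx5* (6877804 to 6882092, minus strand) are 9235 bases apart. The longest stretch of identical sequence between annotated transcripts of any pair of the 8 genes was 44 bases, in *Dlx6* and *Msx2*, shorter than the read length of 75 bases in the labels.

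Promoters are shown for the pair on which the results turn, *Msx1* and *Msx2*, as 250 bases before and 50 bases after the annotated start, from RefSeq on GRCm38.p6. CG dinucleotides are in capitals and each sequence reads 5′ to 3′ on the strand of the gene. The *Msx1* promoter is chr5:37824536-37824835 on the minus strand and the *Msx2* promoter chr13:53472731-53473030 on the minus strand.
Msx1: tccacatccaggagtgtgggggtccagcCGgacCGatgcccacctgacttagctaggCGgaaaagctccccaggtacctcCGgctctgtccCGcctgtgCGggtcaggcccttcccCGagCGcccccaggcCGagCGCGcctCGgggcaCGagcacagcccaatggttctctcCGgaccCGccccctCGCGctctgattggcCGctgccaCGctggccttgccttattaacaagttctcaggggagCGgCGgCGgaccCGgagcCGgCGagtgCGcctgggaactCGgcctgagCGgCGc
Msx2: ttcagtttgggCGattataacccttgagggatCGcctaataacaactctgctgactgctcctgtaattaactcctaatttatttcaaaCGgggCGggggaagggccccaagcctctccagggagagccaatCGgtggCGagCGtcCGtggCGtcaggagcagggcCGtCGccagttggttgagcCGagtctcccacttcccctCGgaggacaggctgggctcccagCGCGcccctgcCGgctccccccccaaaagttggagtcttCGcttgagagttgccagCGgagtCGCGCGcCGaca
Both are rich in CG. The *Msx1* promoter holds 29 CG dinucleotides and the *Msx2* promoter 22, where the median over 32851 promoters of the same length is 7, and 87.1% and 76.9% of those promoters hold fewer. The homeodomain motif TAATTA, which reads the same on both strands, occurs once in the *Msx2* promoter and not in that of *Msx1*, and 5.29% of all promoters hold it. Searched on both strands, GGGCGG occurs once in each (35.7% of promoters), CCAAT 2 times in *Msx1* and once in *Msx2* (37.4%), and TATAAA in neither (13.6%). The *Dlx1* and *Dlx2* promoters hold 27 and 29 CG dinucleotides. The RefSeq table matched 4 of the 8 genes, leaving *Dlx3*, *Dlx4*, *Dlx5* and *Dlx6* without one.

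Loss of KAT6A was accompanied by more *Msx2* RNA. *Msx2* measured 36.5, 32.2, 34.5 and 30.4 CPM in the 4 WT embryos and 49.2, 47.7, 45.7 and 40.2 CPM in the 4 *Kat6a* null embryos. Every *Kat6a* null value lay above every WT value. *Msx2* was 1.28-fold higher in *Kat6a* null embryos (95% confidence interval 1.13 to 1.45; log2 fold change 0.35, SE 0.0886; limma FDR 0.0319). It was the only one of the 8 genes called, and 2.64% of all tested genes were called in this comparison. It was also the only one whose groups did not overlap, against 11.9% of all genes. *Msx2* passed the threshold in all 12 other ways of processing the counts (FDR 0.00251 to 0.0369), but lost it without WT replicate 2 (FDR 0.102), 3 (0.0737) or 4 (0.0996) and without *Kat6a* null replicate 1 (0.0612), 2 (0.0728) or 3 (0.0562), with log2 fold changes between 0.28 and 0.44 over the 8 fits with 1 library left out.

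*Msx1* was 47.4, 39.4, 48.3 and 33.4 CPM in WT embryos. It was 63.4, 64.9, 42.5 and 44.8 CPM in *Kat6a* null embryos. A pair of *Kat6a* null embryos exceeded every WT embryo and the other pair lay within the WT range. The log2 fold change was 0.28 (SE 0.0949, 95% confidence interval 0.08 to 0.48; limma FDR 0.116) and did not pass the threshold, and 3 of the 8 genes (*Msx1*, *Msx2* and *Dlx1*) had an unadjusted p under 0.05, against 16.9% of all genes. *Msx1* passed in 2 of 12 other ways of processing, with 6 surrogate variables and without the filter on low counts, and in none of the 8 fits with a library left out.

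The only litter that held both a WT and a *Kat6a* null embryo gave differences in the same direction. In it, *Msx2* was 36.5 CPM in the WT embryo and 47.7 CPM in the *Kat6a* null embryo (log2 difference 0.39). *Msx1* was 47.4 and 64.9 CPM (log2 difference 0.45). This is 1 pair of embryos and carries no test.

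**Figure D1:**
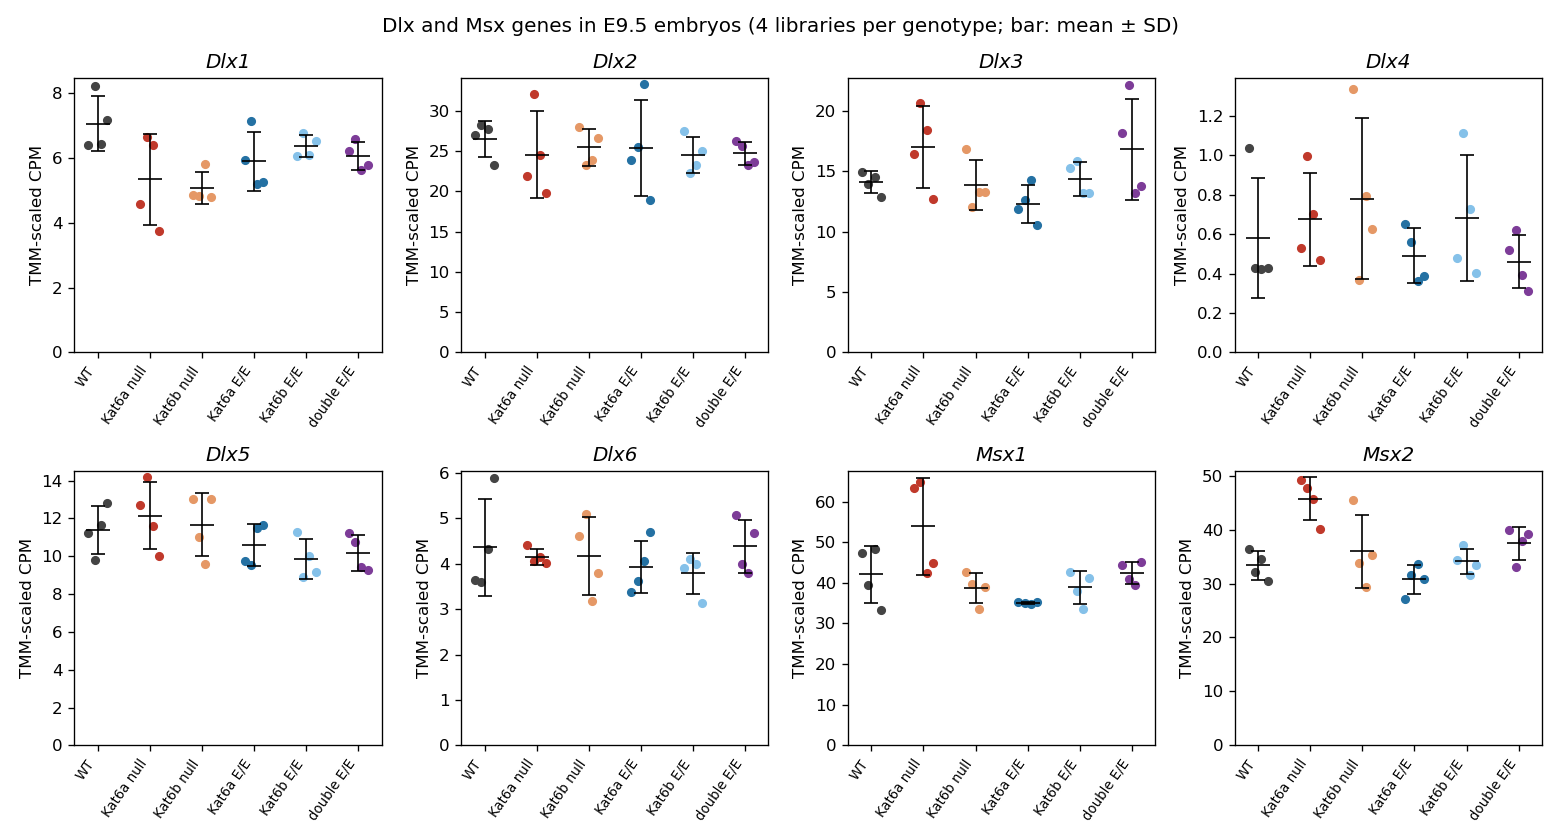
TMM-scaled CPM (y axes, each starting at 0) of the 6 Dlx and both Msx genes in 24 E9.5 embryos by genotype (x axes); points are libraries and bars the mean ± SD of 4. The 4 *Kat6a* null embryos lie at 40.2 to 49.2 CPM for *Msx2*, above the 4 WT embryos at 30.4 to 36.5 CPM.

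The point mutation in *Kat6a* was not accompanied by the same levels. In *Kat6a* E/E embryos *Msx2* was 27.1, 31.6, 33.6 and 30.8 CPM, and *Msx1* was 35.3, 35.1, 34.8 and 35.3 CPM. All 4 *Kat6a* E/E values lay below all 4 *Kat6a* null values for both genes, the only 2 of the 8 genes without overlap (8.35% of all genes). The *Kat6a* E/E and *Kat6a* null embryos shared no litter, so a difference between these genotypes cannot be told apart from one between litters. Compared directly with *Kat6a* null embryos, *Msx2* was lower by a log2 fold change of -0.48 (SE 0.0906, limma FDR 0.00857). *Msx1* was also lower, by -0.48 (SE 0.0982, limma FDR 0.0155). These were the 2 of 8 genes called, where 1.6% of all genes were called, and with *Dlx3* the 3 genes with an unadjusted p under 0.05, against 15.6%. *Msx2* kept its call in all 8 fits with a library left out and in 11 of 12 other ways of processing. *Msx1* kept its call in 9 of 12, and lost it without *Kat6a* null replicate 2 (log2 fold change -0.31, FDR 0.148) or replicate 4 (-0.59, FDR 0.0585).

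Against WT, none of the 8 genes was called in *Kat6a* E/E embryos, where 0.275% of all genes were called by limma. *Msx2* had a log2 fold change of -0.12 (SE 0.0890, FDR 0.693) and *Msx1* of -0.20 (SE 0.0951, FDR 0.481). *Msx1* and *Dlx1* had an unadjusted p under 0.05, against 10% of all genes. No gene of the 8 separated the groups (4.94% of all genes did). All 8 genes had a log2 fold change below 0, with a median of -0.17 beside -0.00 for all genes. The 8 values come from the same libraries, so their common sign does not count as 8 separate observations. Neither edgeR nor DESeq2 called any of the 8 genes.

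Loss of KAT6B was not accompanied by a called change in either Msx gene. *Msx2* was 45.5, 33.7, 29.4 and 35.3 CPM in *Kat6b* null embryos, with replicate 1 well above the WT range and the rest within or near it. The log2 fold change from WT was 0.01 (95% confidence interval -0.18 to 0.19; FDR 0.991). *Msx1* was 42.7, 39.7, 33.5 and 39.0 CPM (log2 fold change -0.20, 95% confidence interval -0.40 to 0.00; FDR 0.427). No gene of the 8 was called by limma, edgeR or DESeq2, and 1 (*Dlx1*) had an unadjusted p under 0.05; over all genes, 0.508% were called and 12.1% had an unadjusted p under 0.05.

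The null mutants were also compared with each other. They shared no litter, so genotype and litter cannot be told apart there. *Msx1* was higher in *Kat6a* null than in *Kat6b* null embryos (log2 fold change 0.48, SE 0.0961, limma FDR 0.0186), and so was *Msx2* (0.35, SE 0.0879, limma FDR 0.0441). These 2 of 8 genes were called, where 1.64% of all genes were, and 3 (with *Dlx3*) had an unadjusted p under 0.05, against 17.3%. No gene of the 8 separated the libraries of these groups completely, where 11% of all genes did. The call of *Msx1* was lost without *Kat6a* null replicate 1 (FDR 0.0996), 2 (0.113) or 4 (0.0838) and without *Kat6b* null replicate 3 (0.0943). The call of *Msx2* was lost without *Kat6a* null replicate 1 (0.162), 2 (0.147) or 3 (0.0883) and without *Kat6b* null replicate 2 (0.0653) or 3 (0.262, log2 fold change 0.23).

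In double E/E embryos *Msx2* was 39.9, 33.1, 37.8 and 39.2 CPM and *Msx1* 44.3, 40.9, 39.5 and 45.2 CPM. For *Msx2*, 3 of 4 embryos lay above every WT embryo and all 4 lay below every *Kat6a* null embryo. *Msx2* had a log2 fold change of 0.17 from WT (95% confidence interval -0.01 to 0.36; FDR 0.317) and of -0.18 from *Kat6a* null (95% confidence interval -0.37 to 0.00; FDR 0.482), and neither passed. *Msx1* had values of 0.02 (FDR 0.947) and -0.26 (FDR 0.351). None of the 8 genes was called in double E/E against WT by limma, edgeR or DESeq2 and none had an unadjusted p under 0.05, where 2.91% of all genes were called and 18.2% had such a p. All 8 overlapped between the groups, while 7.31% of all genes did not. Against *Kat6a* null, none was called by any of the tools and 1 (*Msx1*) had an unadjusted p under 0.05, where 0.00705% of all genes were called and 10.4% had such a p. *Msx2* was the 1 gene of the 8 without overlap there, against 6.68% of all genes.

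In *Kat6b* E/E embryos *Msx2* was 34.4, 37.1, 31.6 and 33.4 CPM (log2 fold change from WT -0.00, 95% confidence interval -0.19 to 0.18). *Msx1* was 42.6, 38.0, 33.6 and 41.2 CPM (log2 fold change -0.16, 95% confidence interval -0.36 to 0.04). The values fell in or near the WT range. Limma called none of the 8 genes, none had an unadjusted p under 0.05, and edgeR and DESeq2 called none, where 0% of all genes were called and 4.41% had such a p. No gene of the 8 was without overlap, against 2.31% of all genes. Against *Kat6b* null, too, none was called by any of the tools and none had an unadjusted p under 0.05, where 0.0353% of all genes were called and 8.83% had such a p.

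A departure of double E/E from the sum of both single E/E changes was tested as an interaction. Its estimate was 0.38 on the log2 scale for *Msx1* (SE 0.141, limma FDR 0.692) and 0.30 for *Msx2* (SE 0.131, limma FDR 0.742). The unadjusted p was under 0.05 for these 2 genes, against 6.42% of all genes, and no gene in the whole set was called (0%). No gene of the 8 was called by edgeR or DESeq2.

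Ordered by mean level, *Msx2* stood at 45.7 ± 3.97 CPM in *Kat6a* null, 37.5 ± 3.08 in double E/E, 36.0 ± 6.81 in *Kat6b* null, 34.1 ± 2.28 in *Kat6b* E/E, 33.4 ± 2.67 in WT and 30.8 ± 2.71 in *Kat6a* E/E embryos (SD, n = 4 each). Below *Kat6a* null, each neighbour in that order lay within 1 SD of the next. *Msx1* ran from 53.9 ± 11.9 CPM in *Kat6a* null to 35.1 ± 0.252 in *Kat6a* E/E. The other 4 means of *Msx1* were 42.5 ± 2.73 CPM in double E/E, 42.1 ± 7.07 in WT, 38.8 ± 3.96 in *Kat6b* E/E and 38.7 ± 3.81 in *Kat6b* null embryos, and each neighbour among these 4 lay within 1 SD of the next.

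**Figure D2:**
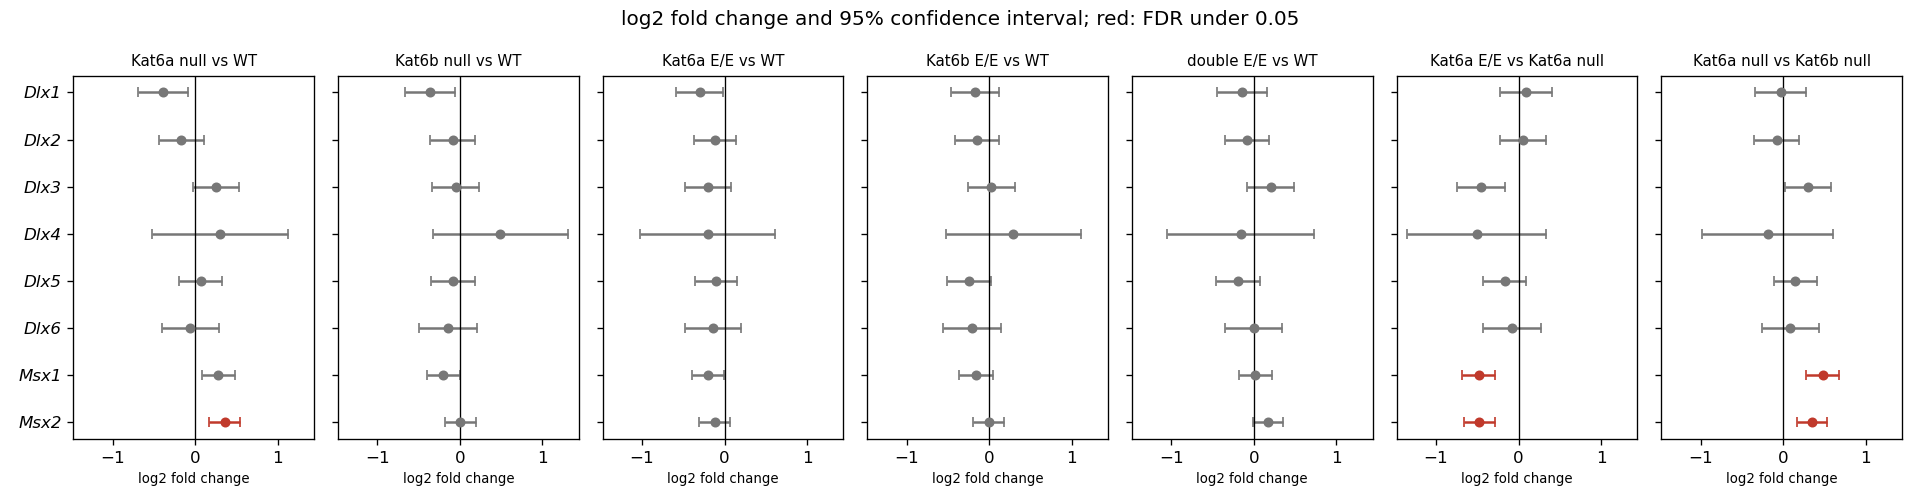
log2 fold change (x axes) of the 8 genes (y axis) in 7 comparisons, with 95% confidence intervals from the limma fit; red marks an FDR under 0.05. *Msx2* is red in *Kat6a* null against WT, and *Msx1* and *Msx2* are red in *Kat6a* E/E against *Kat6a* null (-0.48 each) and in *Kat6a* null against *Kat6b* null (0.48 and 0.35).

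Genes listed as markers of surface ectoderm, one of the tissues that make *Msx1* and *Msx2*, were mostly higher in *Kat6a* null than in WT embryos. Several are made in epithelia in general, so the list does not single out surface ectoderm. Of 10 markers, 7 were higher in *Kat6a* null embryos (*Perp*, *Grhl2*, *Krt18*, *Trp63*, *Epcam*, *Esrp1* and *Cdh1*), where 2.64% of all genes were called. None was lower, and *Krt5*, *Krt8* and *Grhl3* were not called. The median log2 fold change was 0.48 beside -0.00 for all genes. *Perp*, a junction protein of stratified epithelia, went from 15.1 ± 0.836 to 30.1 ± 5.15 CPM (log2 fold change 0.84, limma FDR 0.00528). *Grhl2*, a transcription factor of epithelial cells, went from 15.6 ± 1.62 to 26.2 ± 4.70 CPM (0.70, limma FDR 0.00615). Both were called in all 8 fits with a library left out. The number of markers called was 3 without *Kat6a* null replicate 1, 3 without WT replicate 1, 2 without WT replicate 2 and 3 without WT replicate 3, and 6 or 7 without any of the other 4 libraries.

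The summed level of the 10 surface ectoderm markers was 270 to 346 CPM in WT and 415 to 504 CPM in *Kat6a* null embryos, so the groups did not overlap. Of single genes, 11.9% did not overlap between these groups. The sum was 302 to 430 CPM in *Kat6b* null, 294 to 428 in *Kat6a* E/E, 296 to 375 in *Kat6b* E/E and 352 to 431 in double E/E embryos. In *Kat6a* E/E against *Kat6a* null, 3 of 10 were lower (*Perp*, *Grhl2* and *Grhl3*), with a median of -0.46, and in *Kat6a* null against *Kat6b* null 3 of 10 were higher (*Perp*, *Grhl2* and *Esrp1*), with a median of 0.44. Of all genes, 1.6% and 1.64% were called in these comparisons. The 3 lower calls fell to 0 without *Kat6a* null replicate 2 or *Kat6a* E/E replicate 1 or 4, and to 1 without *Kat6a* null replicate 1 or *Kat6a* E/E replicate 2, and were 7 without *Kat6a* E/E replicate 3. They were also 0 with edgeR without surrogate variables and in a fit to the libraries compared alone. The 3 higher calls fell to 0 without *Kat6a* null replicate 1 or 2 or *Kat6b* null replicate 3, and were 6 without *Kat6b* null replicate 1. In double E/E embryos the marker sum also lay above every WT embryo, while 7.31% of single genes did not overlap between these groups. The Msx genes had log2 fold changes from WT of 0.02 (*Msx1*) and 0.17 (*Msx2*, 95% confidence interval -0.01 to 0.36) there, neither called. There 1 of 10 markers was called (*Krt18*, 0.40, limma FDR 0.0145, lost without WT replicate 2 or 3 or double E/E replicate 4, FDR 0.0865, 0.119 and 0.0657), where 2.91% of all genes were called. An unadjusted p under 0.05 was found for 7 markers, against 18.2% of all genes, and the median of the 10 was 0.28. The number of markers called there was 4 without double E/E replicate 2. The part of the surface ectoderm markers in the Msx values was not tested. In whole embryos a change in the number of cells of a type and one in RNA per cell cannot be told apart.

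Markers of other tissues that make Dlx or Msx genes gave few calls. In the fit reported here, limma called none of the 9 neural crest markers in any mutant against WT. With 1 library left out it called up to 2 in *Kat6a* null embryos. Other processing gave up to 1 in double E/E embryos. In *Kat6a* null embryos 2 of the 9 markers had an unadjusted p under 0.05, against 16.9% of all genes. There edgeR with surrogate variables called 1 of them and DESeq2 none. The summed level of the 9 markers was 624 to 653 CPM in WT and 561 to 649 CPM in *Kat6a* null embryos. One of them, the transcription factor *Ets1*, was lower in *Kat6a* null than in *Kat6b* null embryos (log2 fold change -0.25, limma FDR 0.0349), a call lost without *Kat6a* null replicate 1 (FDR 0.125), 2 (0.174) or 3 (0.0657) or *Kat6b* null replicate 2 (0.0508) or 3 (0.167). Of 6 otic vesicle markers, which mark another site of *Dlx5* and *Dlx6* expression, *Pax2* was lower in *Kat6a* null embryos (-0.80, limma FDR 0.0128; 0.0608 without WT replicate 2 and 0.0629 without *Kat6a* null replicate 4). The summed otic level was 35.9 to 43.9 CPM in WT and 26.2 to 30.4 CPM in *Kat6a* null embryos. It was 25.6 to 38.6 CPM in *Kat6a* E/E, 32.2 to 46.0 in *Kat6b* null, 32.2 to 43.8 in *Kat6b* E/E and 33.1 to 38.6 in double E/E embryos. Most of it was *Gbx2*, *Pax2* and *Pax8*. The other otic markers, *Oc90*, *Hmx2* and *Hmx3*, reached at most 1.27, 0.942 and 1.43 CPM over all libraries. Whether the amount of otic tissue differed was not tested. Of 6 limb bud markers, *Tbx5*, which the paper lists with genes tied to heart defects, was lower (-0.44, limma FDR 0.0263). That call was lost without WT replicate 2 (FDR 0.0757), 3 (0.0931) or 4 (0.101). The same held without *Kat6a* null replicate 2 (0.328, log2 fold change -0.26) or 3 (0.0502). The limb sum was 198 to 277 CPM in WT and 215 to 280 CPM in *Kat6a* null embryos. Much of it was *Prrx1*, also on the neural crest list (105 to 147 CPM over all libraries). None of the markers of forebrain (5), heart (6), blood (7), yolk sac (5 tested of 6) and somite (4) was called by limma, edgeR or DESeq2 in *Kat6a* null embryos. Of these lists, 1, 3, 0, 0 and 0 markers had an unadjusted p under 0.05, against 16.9% of all genes. Without *Kat6a* null replicate 2, however, limma called 1 heart marker and 1 forebrain marker, *Lhx2* (log2 fold change -0.31 with all libraries and -0.63 without it, FDR 0.156 and 0.00267), and with all gene types it called 2 heart markers.

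*Dlx1* and *Dlx2*, which act in the arches and in the ventral forebrain, were not called in any comparison. *Dlx1* measured 6.40, 8.23, 6.43 and 7.18 CPM in WT, 4.59, 6.64, 6.41 and 3.75 CPM in *Kat6a* null and 4.86, 4.83, 5.83 and 4.80 CPM in *Kat6b* null embryos. The *Kat6b* null values all lay below the WT values, the only one of the 8 genes for which this held (6.61% of all genes did not overlap), while the *Kat6a* null values overlapped with WT. The log2 fold change was -0.39 in *Kat6a* null (SE 0.145, 95% confidence interval -0.69 to -0.09; limma FDR 0.149). It was -0.36 in *Kat6b* null (SE 0.146, 95% confidence interval -0.66 to -0.06; limma FDR 0.289) and -0.30 in *Kat6a* E/E embryos (SE 0.138; limma FDR 0.460). These comparisons share the WT libraries. The *Kat6b* E/E values (6.06 to 6.76 CPM) lay above all *Kat6b* null values, the 1 gene of 8 without overlap there (3.5% of all genes), with a log2 fold change of 0.20 (limma FDR 0.746).

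The WT embryo and the *Kat6b* null embryo of 1 shared litter had 6.43 and 4.83 CPM of *Dlx1* (log2 difference -0.41). The WT and *Kat6a* null littermates had 6.40 and 6.64 CPM (0.05), so within that litter the difference was not seen. Reads on *Dlx1* cannot all be assigned to it, since the libraries do not keep strand and 60.2% of its annotated exonic bases (3251 of 5396) are also exonic in the antisense transcript *Dlx1as*. *Dlx1as* itself had 2 to 29 counts per library and a log2 fold change of -0.49 in *Kat6a* null embryos (SE 0.432; limma FDR 0.622 in a fit with all gene types).

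*Dlx2* had means between 24.5 and 26.6 CPM in the 6 genotypes. Its widest spread was in *Kat6a* E/E (18.9 to 33.3 CPM) and *Kat6a* null embryos (19.8 to 32.1 CPM), so the genotypes overlapped. The log2 fold change from WT was -0.17 in *Kat6a* null (95% confidence interval -0.44 to 0.10) and between -0.15 and -0.08 in the other mutants, none of them past the threshold.

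*Dlx3*, which acts in ectoderm-derived tissues, was 14.96, 13.98, 14.55 and 12.86 CPM in WT and 16.4, 20.7, 18.5 and 12.7 CPM in *Kat6a* null embryos. In *Kat6a* E/E embryos it was 11.9, 12.6, 14.3 and 10.5 CPM. *Kat6a* null replicate 4 was the lowest of its group and fell within the *Kat6a* E/E range. *Dlx3* had a log2 fold change of 0.25 in *Kat6a* null from WT (SE 0.136, limma FDR 0.358). It had one of -0.45 in *Kat6a* E/E from *Kat6a* null (SE 0.140, limma FDR 0.0993), which passed without *Kat6a* null replicate 4 (-0.61, FDR 0.0185) or *Kat6a* E/E replicate 3 (-0.55, FDR 0.0325). Its partner *Dlx4* was between 0.311 and 1.34 CPM over all libraries, and its confidence intervals reached from -0.52 to 1.12 in *Kat6a* null and from -0.33 to 1.31 in *Kat6b* null embryos on the log2 scale. A change as large as that of *Msx2* was not detectable for *Dlx4* at this depth.

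*Dlx5* and *Dlx6*, which give the lower jaw its identity, had the smallest estimates in *Kat6a* null embryos. *Dlx5* was 11.4 ± 1.25 CPM in WT and 12.1 ± 1.77 CPM in *Kat6a* null embryos (log2 fold change 0.06, 95% confidence interval -0.19 to 0.32; limma FDR 0.841). *Dlx6* was 4.36 ± 1.07 and 4.16 ± 0.176 CPM (-0.06, 95% confidence interval -0.41 to 0.28; limma FDR 0.891). Over the other genotypes *Dlx5* had means of 9.85 to 11.7 CPM and *Dlx6* of 3.79 to 4.38 CPM, with overlapping libraries. The lowest estimates for both were in *Kat6b* E/E embryos, at -0.24 (95% confidence interval -0.51 to 0.03) and -0.21 (-0.56 to 0.15).

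A noncoding transcript of the same locus was lower in *Kat6a* null embryos. *Dlx6os1* is transcribed opposite to *Dlx6*, and its RNA is known to take part in the control of *Dlx5* and *Dlx6* in the ventral forebrain. It lies on chromosome 6 (6749740 to 6871632, minus strand) and shares no exonic base with *Dlx6* or *Dlx5* in GENCODE M39. *Dlx6os1* was 2.51, 2.92, 3.04 and 2.89 CPM in WT embryos (29 to 54 counts). It was 1.15, 1.93, 0.860 and 1.17 CPM in *Kat6a* null embryos (11 to 29 counts), all below WT. In the fit with all gene types, in which 3.4% of genes were called, its log2 fold change was -1.05 (SE 0.280, limma FDR 0.0361).

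The call of *Dlx6os1* rested on every library but one. It was lost without WT replicate 1 (FDR 0.0571), 2 (0.115), 3 (0.120) or 4 (0.0770) and without *Kat6a* null replicate 1 (0.0793), 3 (0.110) or 4 (0.110), with log2 fold changes from -1.34 to -0.91, and also without surrogate variables (-1.08, FDR 0.0718). In double E/E embryos its mean was 1.46 ± 0.360 CPM and its log2 fold change from WT -0.98 (SE 0.295, limma FDR 0.0649). In *Kat6a* E/E (2.15 ± 0.430 CPM), *Kat6b* E/E (2.10 ± 0.825 CPM) and *Kat6b* null embryos (2.65 ± 0.515 CPM) it was not called. None of the nearest tested protein-coding neighbours of the 8 genes outside the group itself was called in any comparison.

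*Msx3*, the remaining Msx gene, made in the dorsal neural tube, had lower means in the null and double E/E embryos than in WT. It was 29.1 ± 3.58 CPM in WT, 19.97 ± 4.01 in *Kat6a* null, 20.4 ± 4.32 in *Kat6b* null and 22.5 ± 0.923 in double E/E embryos (SD, n = 4 each). Every library of these 3 mutant groups lay below every WT library (26.6 to 34.4 CPM). Of all genes, 11.9% did not overlap with WT in *Kat6a* null, 6.61% in *Kat6b* null and 7.31% in double E/E embryos. The 3 comparisons share the WT libraries. The log2 fold change was -0.50 in *Kat6a* null (SE 0.145, 95% confidence interval -0.81 to -0.20; limma FDR 0.0691), below the threshold in 4 of 12 other ways of processing and in none of the 8 fits with a library left out. It was -0.44 in *Kat6b* null (limma FDR 0.193), -0.35 in double E/E (95% confidence interval -0.65 to -0.05; limma FDR 0.198), -0.08 in *Kat6a* E/E (limma FDR 0.893) and -0.12 in *Kat6b* E/E embryos (limma FDR 0.998).

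Genes that act with Dlx and Msx in the arches were counted from 5 lists. Of all tested genes, 2.64% were called in *Kat6a* null against WT, 1.26% higher and 1.38% lower. Of 20 genes of endothelin signalling and arch patterning, none was higher and 3 were lower in *Kat6a* null than in WT embryos, with a median log2 fold change of -0.12 beside -0.00 for all genes. *Barx1*, a homeobox gene of the molar-forming and ventral arch mesenchyme, went from 21.4 ± 2.54 to 12.5 ± 0.431 CPM (-0.86, limma FDR 0.0133). *Pou3f3*, a gene of the dorsal first arch, went from 77.0 ± 8.75 to 48.4 ± 14.6 CPM (-0.55, limma FDR 0.00615), and the nuclear receptor *Nr2f1* from 211 ± 11.7 to 166 ± 21.6 CPM (-0.23, limma FDR 0.0290). *Pou3f3* was called in all 8 fits with a library left out. *Barx1* was not called without WT replicate 1 (FDR 0.0729), 2 (0.0931), 3 (0.111) or 4 (0.0529), nor *Nr2f1* without WT replicate 2 (0.156), 3 (0.124) or 4 (0.0829) or *Kat6a* null replicate 1 (0.0642), 3 (0.0509) or 4 (0.0549).

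These 3 genes were higher in *Kat6a* E/E than in *Kat6a* null embryos, a comparison that shares the *Kat6a* null libraries. *Barx1* had a log2 fold change of 0.95 (limma FDR 0.00974, and 0.0620 without *Kat6a* E/E replicate 2). *Nr2f1* had one of 0.25 (FDR 0.0248, not called without *Kat6a* E/E replicate 2 or 4, FDR 0.0777 and 0.0832). *Pou3f3* had one of 0.42 (FDR 0.0442) that was called only without *Kat6a* null replicate 2 or *Kat6a* E/E replicate 3 among the 8 fits with a library left out. In *Kat6a* null against *Kat6b* null, *Barx1* was lower (-0.71, FDR 0.0472; -0.43, FDR 0.281 without *Kat6b* null replicate 1), and it was not called without *Kat6a* null replicate 1 (0.107) or *Kat6b* null replicate 2 (0.108), 3 (0.189) or 4 (0.221). In double E/E embryos the G protein gene *Gna11* (-0.20, FDR 0.0295) and the jaw joint gene *Nkx3-2* (-0.94, FDR 0.0333) were the 2 lower than in WT, each called in 3 of 8 fits with a library left out. Both were lost without WT replicate 1, 2 or 3 or double E/E replicate 3, *Gna11* also without double E/E replicate 2 (FDR 0.0548 to 0.120), and *Nkx3-2* also without double E/E replicate 4 (FDR 0.0647 to 0.122). The ligand *Edn1* and its receptor *Ednra* were not called in any comparison.

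Of 24 transcription factors and signals of the facial prominences, 3 were lower and none higher in *Kat6a* null embryos (median -0.12). They were the forkhead genes *Foxc2* (45.7 ± 4.49 to 29.7 ± 2.86 CPM; -0.56, limma FDR 0.00352), *Foxf1* (32.2 ± 6.05 to 21.0 ± 7.55 CPM; -0.75, FDR 0.0112) and *Foxf2* (13.3 ± 1.06 to 9.65 ± 1.96 CPM; -0.48, FDR 0.0354). *Foxc2* was called in all 8 fits with a library left out. *Foxf1* was lost without *Kat6a* null replicate 2 (-0.47, FDR 0.176), and *Foxf2* without any WT replicate or *Kat6a* null replicate 1 or 4 (FDR 0.0540 to 0.172). *Foxf1* was higher in *Kat6a* E/E than in *Kat6a* null embryos (0.72, FDR 0.0212; 0.44, FDR 0.303 without *Kat6a* null replicate 2). *Foxc2* was lower in *Kat6a* null than in *Kat6b* null embryos (-0.60, FDR 0.00411; 0.0573 without *Kat6a* null replicate 2), and lower in double E/E than in WT embryos (-0.37, FDR 0.0445), a call lost in each of the 8 fits with a library left out (FDR 0.0544 to 0.165).

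Of the 11 tested of 12 genes of the pharyngeal pouches and arch mesoderm, the T-box gene *Tbx1* was lower in *Kat6a* null embryos, at 14.3 ± 2.33 CPM against 26.8 ± 3.33 CPM in WT (-0.77, limma FDR 0.000171). It was called in all 8 fits with a library left out and all 12 other ways of processing. *Tbx1* was higher in *Kat6a* E/E than in *Kat6a* null embryos (0.55, FDR 0.00893), also in all 8 such fits. The paper reports reduced *Tbx1* in both *Kat6a* null and double E/E embryos. In double E/E against WT, limma called 0 genes of this list here, and 0 to 2 under other processing. In *Kat6a* null against *Kat6b* null, *Tbx1* (-0.44, FDR 0.0364) and the homeobox gene *Nkx2-6* of pharynx and heart (-0.77, FDR 0.0401) were lower, each in 2 of 8 such fits. Both were lost without *Kat6a* null replicate 1, 3 or 4 or *Kat6b* null replicate 2, 3 or 4 (FDR 0.0651 to 0.137).

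Of 22 genes of the BMP pathway, whose signals induce Msx genes, limma called none in any comparison. In *Kat6a* null embryos 7 of 22 had an unadjusted p under 0.05, against 16.9% of all genes, and the median of the list was 0.06. The smallest p belonged to the ligand *Bmp5* (log2 fold change 0.29, limma FDR 0.0521), which passed without WT replicate 4 (FDR 0.0429) or *Kat6a* null replicate 2 (0.0330). The number called there was 1 with edgeR with surrogate variables, 0 with edgeR without them and 2 with DESeq2, and ran from 0 to 3 over all ways of processing, with 3 in the fit without the filter on low counts. It was 3 without *Kat6a* null replicate 2, and 1 without *Kat6a* null replicate 4 or WT replicate 4. In the other comparisons *Bmp7* passed in *Kat6a* null against *Kat6b* null without *Kat6b* null replicate 1 (0.29, FDR 0.0167) and *Bmp5* in double E/E against WT without WT replicate 4 (0.35, FDR 0.0418). Of 10 genes of the ventral forebrain, where Dlx genes act, limma, edgeR and DESeq2 called none in *Kat6a* null embryos. An unadjusted p under 0.05 was found for 1 of them, against 16.9% of all genes. In double E/E embryos the smallest p belonged to *Gad1*, the enzyme that makes GABA (1.15, limma FDR 0.0508, and 0.0486 without double E/E replicate 1).

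**Figure D3:**
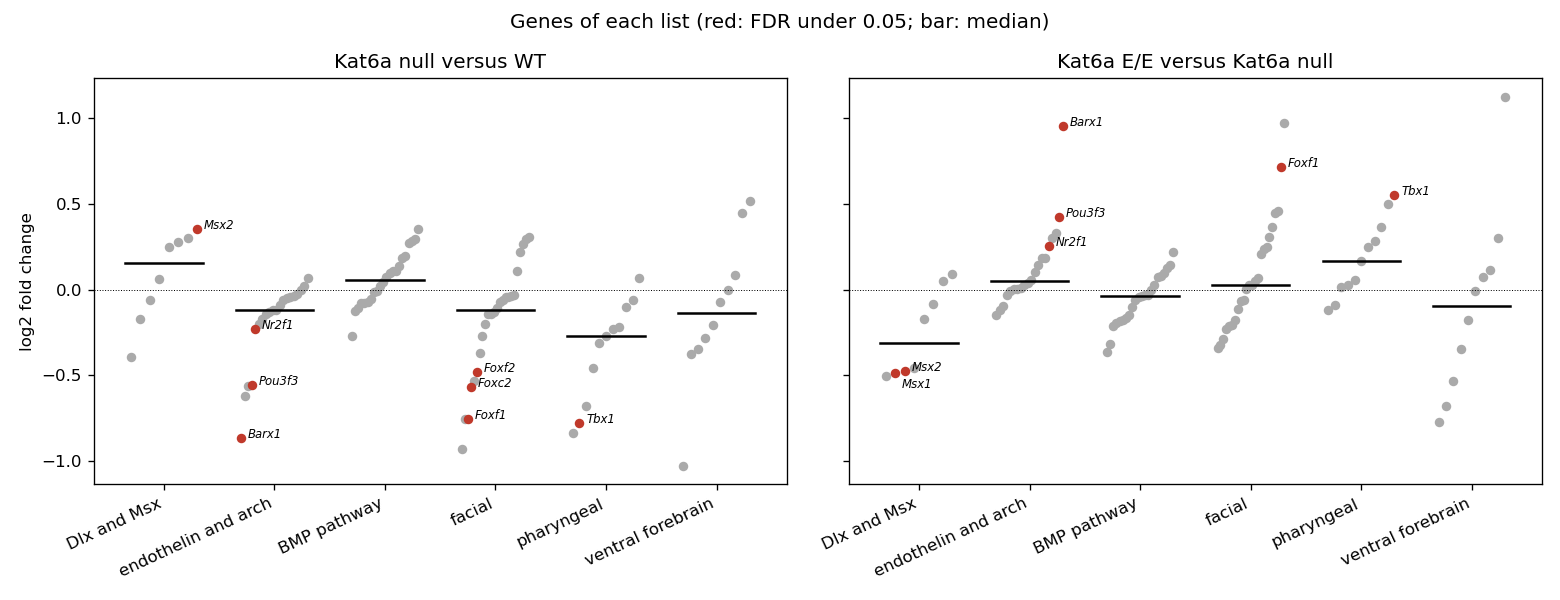
log2 fold change (y axis) of every tested gene of the Dlx and Msx group and of 5 lists (x axes) in *Kat6a* null against WT (left) and *Kat6a* E/E against *Kat6a* null (right); red marks an FDR under 0.05 and bars the list's median. *Msx2* lies above 0 on the left while all 7 other called genes there lie below 0, and on the right *Msx1* and *Msx2* lie below 0 while *Barx1*, *Pou3f3*, *Nr2f1*, *Foxf1* and *Tbx1* lie above.

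*Msx1* and *Msx2*, on different chromosomes, varied together over the 24 libraries (log2 CPM, Pearson r = 0.799, permutation p = 1e-05, the smallest the 100000 resamples can give, and 4e-05 adjusted over 4 pairs; Spearman rho = 0.796, adjusted p = 8e-05). Without the 2 libraries farthest from the median of *Msx1*, the gene named first, the correlation was 0.669. With the mean of each genotype removed it was 0.593 (permutation p adjusted over 4 pairs 0.00434). The libraries share genotypes, litters and the composition of the embryo. The permutations ignored genotype and litter, so their p-values can be too small.

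The same was computed for the neighbouring Dlx pairs, with the farthest libraries again taken from the gene named first. For *Dlx5* and *Dlx6* the correlation was 0.476 (Spearman 0.467; adjusted permutation p = 0.0313 and 0.0404), 0.572 without the 2 farthest libraries and 0.513 with genotype means removed. For *Dlx3* and *Dlx4* it was 0.459 (Spearman 0.444; adjusted permutation p = 0.0313 and 0.0404) and 0.616 with genotype means removed. Without the 2 farthest libraries it was 0.422, with a permutation p of 0.0504. For *Dlx1* and *Dlx2* it was 0.348 (Spearman 0.290; adjusted permutation p = 0.0954 and 0.168) and 0.103 without the 2 farthest libraries.

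**Figure D4:**
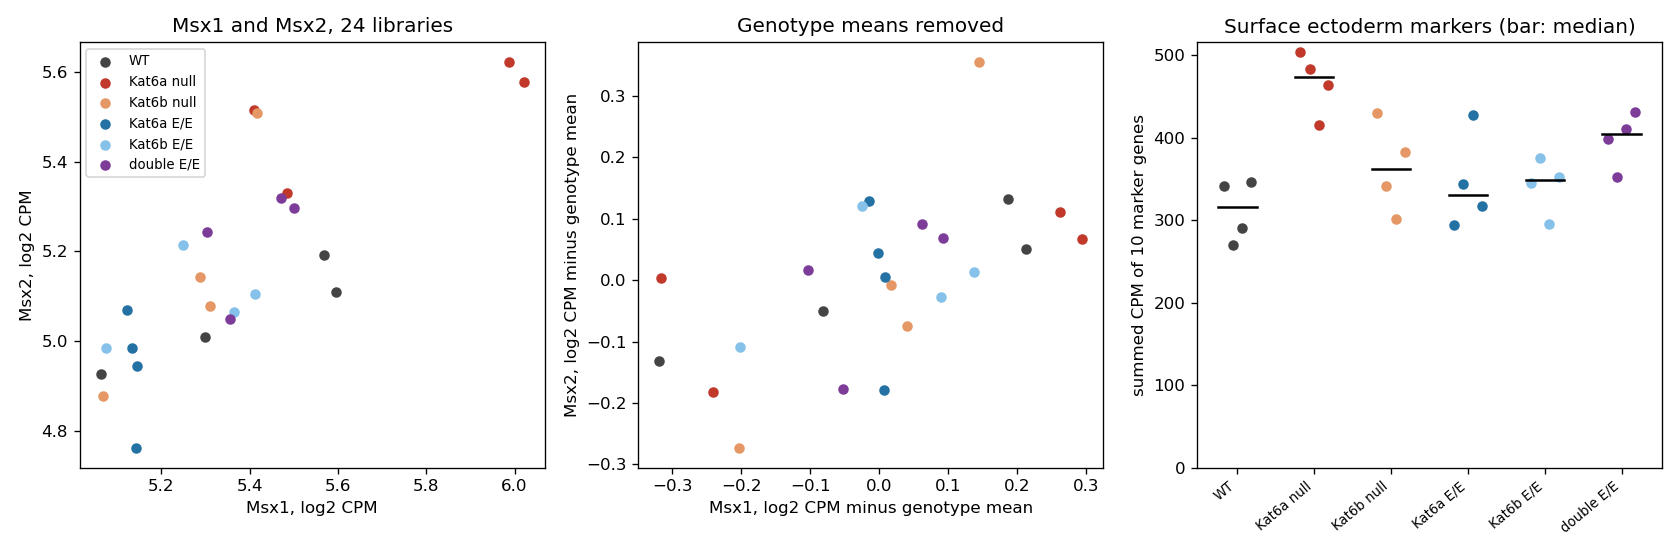
Left, log2 CPM of *Msx1* (x axis) and *Msx2* (y axis) in 24 libraries coloured by genotype; middle, the same with genotype means removed; right, summed CPM of 10 surface ectoderm markers (y axis) per library, with the median as a bar. The correlations are 0.799 and 0.593, and the *Kat6a* null sums (415 to 504 CPM) lie above the WT sums (270 to 346 CPM).

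The genes most like each member over the 24 libraries, by Pearson correlation of log2 CPM among all tested genes, are given as a description. For *Msx2* they included *Itga3* (0.879) and *Cdh3* (0.877), an integrin chain and P-cadherin, both known from epithelia. *Cdh3* was higher in *Kat6a* null than in WT embryos (log2 fold change 0.49, limma FDR 0.0324). For *Msx1* they were *Rtl8c* (0.831), *Gas1* (0.827), a hedgehog co-receptor, and *Axin2* (0.820), a target of WNT signalling. *Axin2* was lower in *Kat6a* E/E than in *Kat6a* null embryos (-0.48, limma FDR 0.0109).

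For the Dlx genes the highest correlations were lower. *Dlx3* was most like *Sqstm1* (0.775), *Igfbp2* and *Jdp2*, *Dlx1* like *D430019H16Rik* (0.771), *Rtn2* and *Agap2*, and *Dlx6* like *Spry2* (0.716), *Amt* and *Preb*. *Dlx4* was most like *Prickle3* (0.707), *Insyn2a* and *Ager*, *Dlx5* like *Krt23* (0.705), *Gprc5c* and *Cd164l2*, and *Dlx2* like *Grk5* (0.662), *Pmepa1* and *Parm1*.

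**Figure D5:**
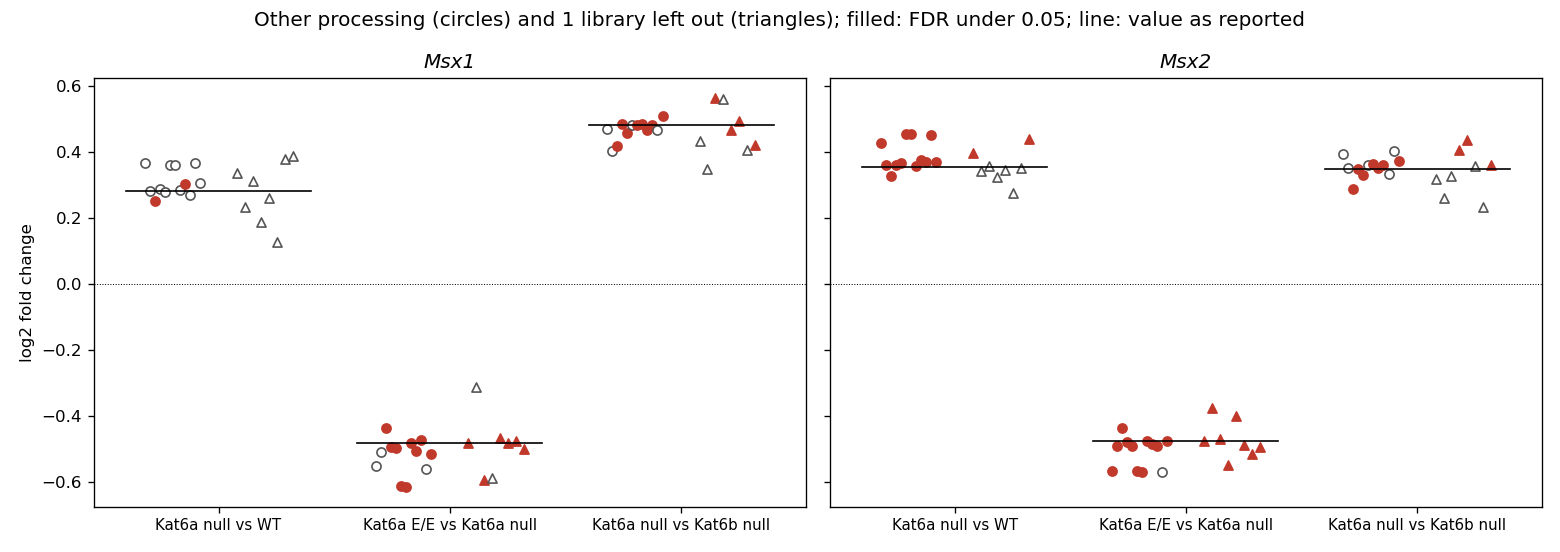
log2 fold change (y axis) of *Msx1* (left) and *Msx2* (right) in 3 comparisons (x axis) under 12 other ways of processing (circles) and with 1 library left out (triangles); filled symbols have an FDR under 0.05 and the line is the value reported. Signs are the same throughout, while triangles for *Msx2* in *Kat6a* null against WT run from 0.28 to 0.44 and only 2 of 8 are filled.

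In blood stem and progenitor cells the 8 genes were at or near 0. The 16 libraries of lineage-negative, SCA-1 and KIT positive cells from fetal liver at E14.5 held 12270376 to 59216547 counts each, from 4 fetuses each of double E/E, *Kat6b* E/E, WT and *Kat6a* E/E genotype. *Dlx5* and *Dlx6* had 0 counts in all 16, which allows up to 0.0507 to 0.244 CPM (3 counts per library, counting error only). Over all 16 libraries *Msx2* had 1 count, *Msx1* had 2, *Dlx1* and *Dlx2* had 6 each and *Dlx4* had 21. *Dlx3* had 97 counts, at most 0.705 CPM, where the lowest E9.5 embryo had 10.5 CPM.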

How the data were processed

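The authors deposited raw counts of read pairs per RefSeq gene for 24 whole E9.5 embryos and 16 LSK libraries. Per the labels and the methods, TruSeq v2 libraries, which keep no strand, were read as pairs and counted with featureCounts (Rsubread) on mm39. The count table was used whole, with 0 columns of other samples. Groups were taken from the genotype labels.

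Protein-coding genes without Y-linked genes were filtered with filterByExpr and scaled by TMM (edgeR 4.0.16). They were fitted with limma 3.58.1 (R 4.3.3): voomLmFit over all 24 libraries, 4 surrogate variables, litter as a random block (correlation 0.107), robust moderation and Benjamini-Hochberg FDR under 0.05 over 14183 genes. This follows the model of the study. Alternatives used edgeR's quasi-likelihood test, DESeq2 1.42.0, other surrogate variables, filters and scalings, a replicate block, and each library left out. Correlations used log2 CPM with a prior count of 0.5. The scripts were tested on simulated data. Depth, 8401990 to 23339359 counts, sets the precision, and intervals cover the spread between embryos.

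The genes, the lists and the marker sets were chosen with earlier results of these data known. Named genes are the 8 members, *Msx3*, *Dlx1as* and *Dlx6os1*, *Kat6a* and *Kat6b*, every listed gene called or the one with the smallest p where none was, the 3 genes most correlated with each member, and the nearest tested neighbours. A few results that this rule names are not reported here. Promoters came from a RefSeq table on GRCm38.p6, and positions from GENCODE M39 on GRCm39. The check of the replicate pairing is given with the other settings. Leaving out libraries for *Dlx6os1* was added after the data were seen.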

Additional observations from a re-analysis of the deposited data

Results flagged for a closer look

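In *Kat6b* null embryos, replicate 3 had 5.83 CPM of *Dlx1* while the other 3 libraries lay at 4.80 to 4.86 CPM, a gap large for a group of 4 (Dixon's test at 95%). In WT embryos, replicate 1 had 1.04 CPM of *Dlx4* while the other 3 lay at 0.423 to 0.429 CPM, on 5 to 12 counts per library. Of 48 groups (8 genes in 6 genotypes) 2 stood out in this way, and chance gives about 1 in 20.

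In LSK cells, which entered no comparison, double E/E replicate 1 had 0.705 CPM of *Dlx3* (13 counts), above the highest WT library (0.453 CPM), while the other 3 double E/E libraries had 0. *Kat6b* E/E replicate 1 had 0.237 CPM of *Dlx4* (6 counts), above the highest WT library (0.208 CPM). Neither difference was tested.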

How the results depend on the processing

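No log2 fold change of the 8 genes that was called changed sign in any alternative. Over 952 values under other processing, 937 kept their side of the threshold, 13 lost the call and 2 gained it, and over 704 values with 1 library left out 685, 17 and 2 did so. The number of the 8 genes called in *Kat6a* null against WT was 1, and 2 with 6 surrogate variables and with no filter on low counts, and 0 to 1 with a library left out. In *Kat6a* E/E against *Kat6a* null it was 2, and 1 with no surrogate variables, 1 with 2 surrogate variables, 0 with only the libraries compared, and 1 to 3 with a library left out. In *Kat6a* null against *Kat6b* null it was 2, and 0 with no surrogate variables, with 2 of them, with edgeR without them and with only the libraries compared, 1 with all gene types, and 0 to 2 with a library left out. In the other comparisons it was 0 throughout. The cause was not tested. The calls of *Dlx6os1* lost with a library left out or without surrogate variables are given with its values.

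With the replicate number as a block, the counts of called genes were unchanged (1, 2, 2 and 0). Samples of the same number did not deviate together: over 60 same-numbered pairs the correlation ran from -0.222 to 0.282 (median 0.0351, 14 over 0.1), and 9 of 24 libraries correlated best with their own number, so the numbers were not taken as pairs. The permutation test for genes under the count filter was not run, since all 8 passed. Depth limits *Dlx4* above all.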
